A study of Mus musculus with 45 samples.

Results

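To ask what a typical Western diet (TWD) does to the hippocampus irrespective of Alzheimer-type transgenes, all 24 mice on TWD were compared with all 21 mice on standard diet (STD), with genotype and batch held as covariates. These 45 samples, chosen by the diet in their labels, are all the samples of the series. The animals were female C57Bl/6J mice that received either TWD with 21% fat, 0.15% cholesterol and 35% sucrose or STD with 5% fat and 0% cholesterol from 7 to 13 months of age. AwTw mice carried neither transgene, A+ mice carried APPswe/PS1dE9 under the mouse prion protein promoter, and T+ mice carried human Tau P301L under the CaMKII promoter. Among the STD mice 6 were AwTw, 5 A+Tw, 6 AwT+ and 4 A+T+ (carrying both transgenes), and each genotype contributed 6 mice to the TWD group. Each sample had its own label and was taken as a separate animal, which the labels do not state. The labels give 12 AwTw and 12 AwT+ samples, more than the mice the paper counts for either genotype. The reason for this mismatch is not known. By the batch given in the labels, 8 STD and 12 TWD mice belonged to batch 0 and 13 STD and 12 TWD mice to batch 1. No sample was in both batches, so the diet effect could be read in each on its own.

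Western diets combine saturated fat, cholesterol and sugar and lead to weight gain and insulin resistance. In the brain, the insulin receptor signals through phosphoinositide 3-kinase (PI3K) and Akt to the FoxO transcription factors, and in microglia, the resident immune cells, the receptor Trem2 with its adaptor Tyrobp feeds into the same kinase. Hippocampal neurons rely on mitochondrial oxidative phosphorylation for firing and synaptic transmission, and the subunits of ribosomes and respiratory complexes are known to be expressed in a coordinated way.

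All values are on the variance-stabilized, log2-like scale of the deposited table, in which 15897 genes spanned 1.90 to 18.08. The medians of single mice lay between 8.05 and 8.31. Read depth per mouse is not given in this table, so differences of low genes are understated by an unknown amount and no counting error can be stated. The markers of the labelled tissue were present, with a mean over 12 hippocampal excitatory neuron markers between 10.6 and 11.3 in every mouse. App averaged 15.38 ± 0.177 (SD, n = 11) in A+Tw and 14.54 ± 0.194 (n = 12) in AwTw mice. Mapt averaged 13.00 ± 0.210 (n = 12) in AwT+ and 12.92 ± 0.141 (n = 12) in AwTw mice, and hence did not check the Tau label. A pair of samples, both on TWD and in batch 1, stood apart from the rest: the median correlation across genes with the other mice was 0.941 in A+T+/TWD replicate 1 and 0.944 in AwTw/TWD replicate 3, against at least 0.953 in every other mouse. Counts of calls, list medians, genotype values and the trend with GC content are also given without these 2 mice.

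In TWD mice most measured genes of ribosomal proteins and respiratory chain subunits rose, and part of the microglial and interferon-stimulated genes did, while part of the ion channel, postsynaptic and insulin signalling genes fell. Of the 15897 genes, 4678 (29.4%) passed an adjusted p of 0.05, with 2546 (16.0%) higher and 2132 (13.4%) lower on TWD, and 7013 (44.1%) had an unadjusted p below 0.05. Differences were small. The median log2 difference was 0.24 among the genes that rose and -0.33 among those that fell, 420 of all genes exceeded 0.5 in either direction, and 15 exceeded 1. In no gene were the 2 diets free of overlap (0.0%), that is, for every gene some STD mouse had a value within the range of the TWD mice. Apart from Pbx3 (adjusted p = 0.00713), no adjusted p was below 0.0157, a value shared by many genes. Without the 2 mice that stood apart, 1 gene passed (Pbx3, with 5262 genes at an unadjusted p below 0.05), without the AwTw mice 0 passed (3581 unadjusted), and without the AwT+ mice 1 passed (Pbx3, 5957 unadjusted).

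The diet effect was carried to very different extents by the 2 batches. In batch 0 alone 0 genes (0.0%) passed the threshold and 882 (5.55%) had an unadjusted p below 0.05, of which 480 (3.02%) were higher and 402 (2.53%) lower, whereas in batch 1 alone 6498 genes (40.9%) passed, of which 3226 (20.3%) were higher and 3272 (20.6%) lower. The median absolute log2 difference over all genes was 0.09 in batch 0 and 0.23 in batch 1. Without the 2 mice that stood apart, the count in batch 1 was 0, with 6079 genes at an unadjusted p below 0.05. The difference between the batches was itself tested with an interaction term of batch and diet in limma: 0 genes passed (0.0%), and 4456 (28.0%) had an unadjusted p below 0.05.

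The direction was shared more often than the size. Across all 15897 genes, the log2 differences of the batches correlated with a Pearson r of 0.257 and a Spearman rho of 0.367, and 64.0% of the genes had the same sign. For 52.2% of all genes the sign was shared and the difference was larger in batch 1. These are descriptions across genes, which share mice, libraries and base composition and are not independent of one another. Of the 6498 genes called in batch 1, 75.1% had the same sign in batch 0, and 287 of them reached an unadjusted p below 0.05 there with the same sign and 31 with the opposite sign, where 5.55% of all genes had such a p, so that such a p in batch 0 was no more frequent among them than among all genes. Genes that rose in batch 1 went the same way in batch 0 in 80.1% of cases, and genes that fell in 70.3%. Read the other way round, 369 of the 882 genes with an unadjusted p below 0.05 in batch 0 had the same sign and such a p in batch 1, and 55 had the opposite sign, while 52.6% of all genes had such a p in batch 1. The 369 genes, 2.32% of those tested, comprised 253 higher (1.59%) and 116 lower (0.730%) on TWD.

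**Figure D1:**
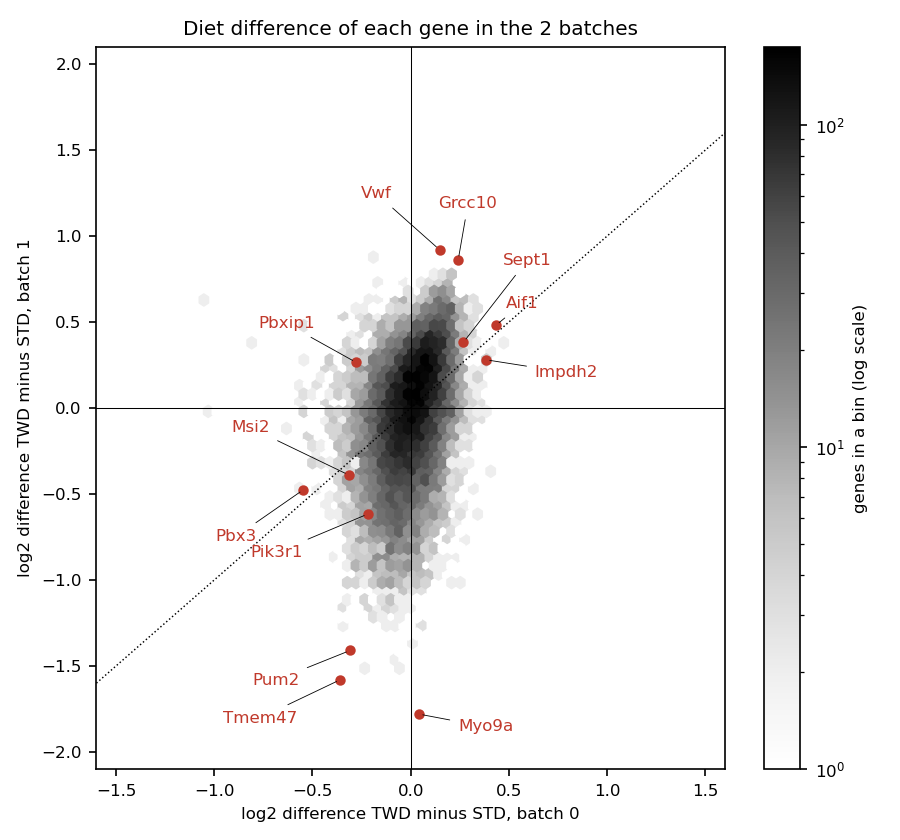
Log2 difference between TWD and STD mice of each gene in batch 0 (horizontal axis, 20 mice) and batch 1 (vertical axis, 25 mice). Grey shading counts genes per bin on a log scale, red points mark named genes, the dotted line marks equal differences, and 8 genes lie outside the axes. The cloud is steeper than the dotted line, since differences were larger in batch 1. Pbx3, Aif1, Sept1 and Impdh2, picked for a small p in both batches, lie near the line.

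For genes that changed by similar amounts in both batches, the call rests less on batch 1. Those named next were picked among the called genes for a small p in both batches. Their likeness between batches thus follows in part from the choice. In batch 0 alone the smallest adjusted p of any gene was 0.82. Pbx3, a homeobox transcription factor of the TALE class that partners with Hox and Meis proteins, had the smallest p of all genes. The gene spans chr2:34171457-34373142 (mm10). In batch 0 its values ranged from 6.96 to 7.73 with a median of 7.37 on STD, and from 6.34 to 7.26 with a median of 6.74 on TWD. In batch 1 they ranged from 6.71 to 7.73 with a median of 7.17 on STD, and from 6.33 to 7.48 with a median of 6.62 on TWD. TWD mice were thus mostly at the low end with overlapping ranges, and 21 of 24 lay below the median of the STD mice. The log2 difference was -0.50 ± 0.0845 (SE; adjusted p = 0.00713), with -0.55 in batch 0 and -0.47 in batch 1, and by genotype it was -0.48 (AwTw), -0.33 (AwT+), -0.54 (A+Tw) and -0.69 (A+T+). Without the 2 mice that stood apart it was -0.47 (adjusted p = 0.0380).

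Aif1, which encodes the microglial protein Iba1, was among the genes that rose with the smallest p. It spans chr17:35170991-35176068. Values in batch 0 ran from 6.30 to 7.26 (median 6.71) on STD and from 6.90 to 8.13 (median 7.26) on TWD. Those in batch 1 ran from 6.51 to 7.87 (median 6.75) on STD and from 6.65 to 8.09 (median 7.38) on TWD. Of the 24 TWD mice 23 exceeded the STD median, with overlap in both batches. The difference was 0.45 ± 0.0852 (adjusted p = 0.0157), 0.43 in batch 0 and 0.48 in batch 1. By genotype it was 0.55 (AwTw), 0.49 (AwT+), 0.55 (A+Tw) and 0.16 (A+T+), and the interaction of genotype and diet was not significant for any gene.

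Sept1, a septin that forms cytoskeletal filaments, rose by 0.33 ± 0.0617 (adjusted p = 0.0157). Its values were between 5.98 and 6.36 on STD and between 6.25 and 6.68 on TWD in batch 0, and between 5.95 and 6.82 and between 6.07 and 6.99 in batch 1, where 1 STD mouse at 6.82 lay above the other STD mice. Impdh2, the rate-limiting enzyme of guanine nucleotide synthesis, rose by 0.31 ± 0.0620 (adjusted p = 0.0157), with 0.38 in batch 0 and 0.28 in batch 1. The difference was larger in batch 0. Medians went from 9.31 on STD to 9.68 on TWD in batch 0 and from 9.38 to 9.76 in batch 1. Cfdp1, a chromatin protein needed for chromosome organisation, rose by 0.24 ± 0.0512 (adjusted p = 0.0157), and all 24 TWD mice lay above the STD median, with differences of 0.25 in each batch.

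Further genes whose p was small in both batches were Grrp1 (0.43), Timm10, a chaperone of mitochondrial protein import (0.35), and Smap1, a GTPase-activating protein of vesicle trafficking (0.21), all higher on TWD. On the lower side were Msi2, an RNA-binding protein of neural progenitors (-0.34, with -0.31 and -0.39 in batches 0 and 1), and Trdmt1, a tRNA methyltransferase (-0.46, with -0.37 and -0.64). Each of these passed with an adjusted p of 0.0157. In batch 0 the medians of Msi2 were 10.04 on STD and 9.70 on TWD, in batch 1 10.07 and 9.58. One library, A+T+/TWD replicate 1, lay far below the others of its group for Trdmt1.

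**Figure D2:**
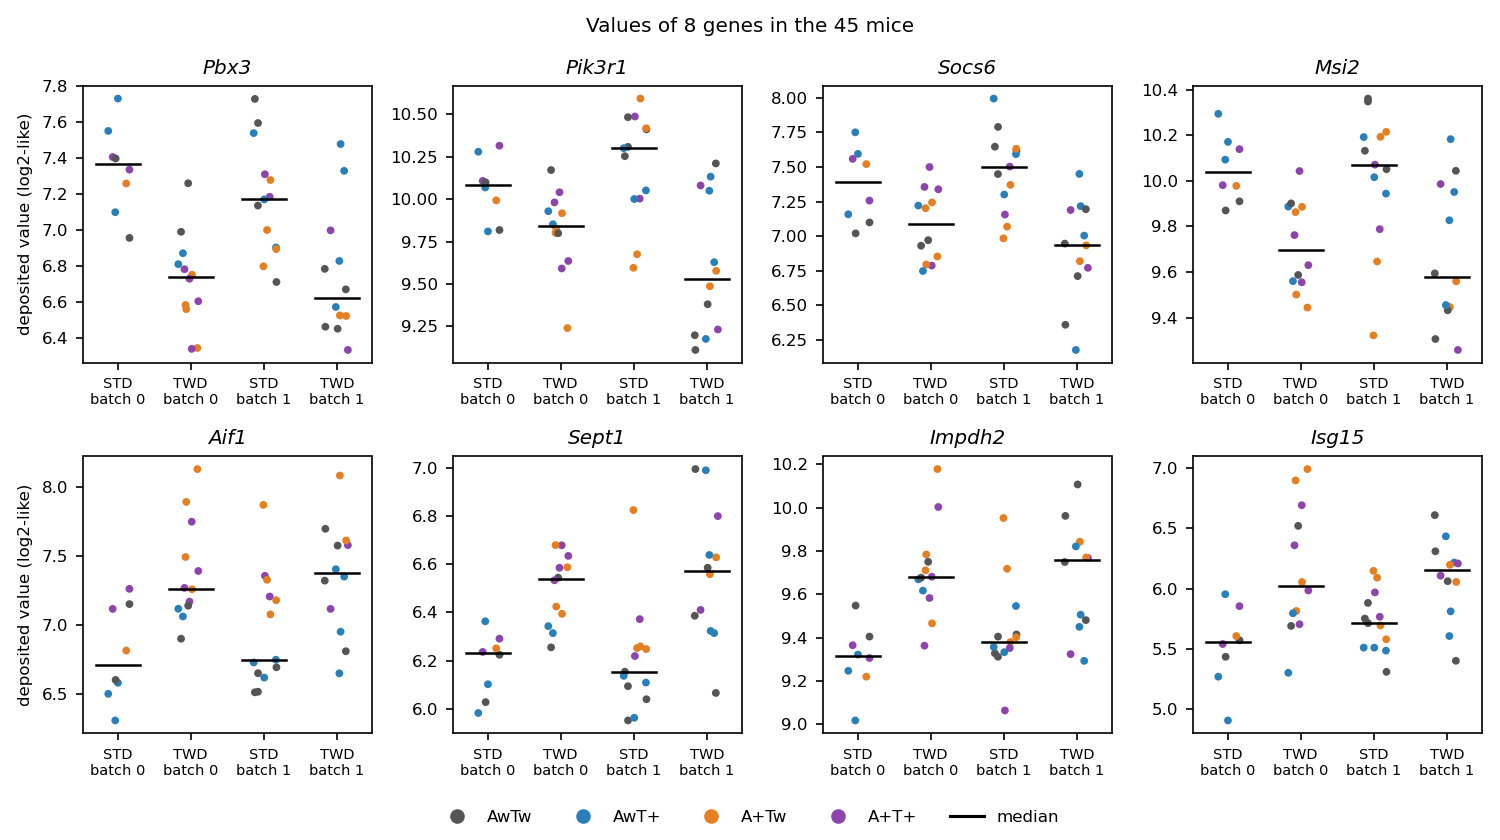
Deposited log2-like value of 8 genes in each of the 45 mice, by diet and batch, coloured by genotype, with black lines at the group medians. TWD medians lie lower for Pbx3, Pik3r1, Socs6 and Msi2 and higher for Aif1, Sept1, Impdh2 and Isg15 in both batches, and the ranges of the diets overlap in both batches for every gene shown.

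The remaining genes with the smallest p rose or fell by more in batch 1 than in batch 0. Siva1, a pro-apoptotic adaptor (0.48 ± 0.0918), the histone gene Hist3h2a (0.29 ± 0.0580), the lysosomal phospholipase Pla2g15 (0.25 ± 0.0491), the Arf exchange factor Cyth4 (0.26 ± 0.0552), the translation factor Eif1b (0.33 ± 0.0692), the ATP-gated channel P2rx4 (0.28 ± 0.0576) and the ribosome-associated Rps19bp1 (0.38 ± 0.0813) were higher on TWD. Hist3h2a was above the STD median in all 24 TWD mice. Lower on TWD were Socs6, a suppressor of cytokine and insulin receptor signalling (-0.45 ± 0.0925), Cobll1 (-0.49 ± 0.103), Shroom4 (-0.41 ± 0.0867), Fam196a (-0.32 ± 0.0689), the cadherin Dchs2 (-0.34 ± 0.0741), the vesicular glutamate transporter Slc17a8 (-0.41 ± 0.0878) and Tmem255a (-0.41 ± 0.0901). All 24 TWD mice were below the STD median for Socs6. Each of these 14 genes had an adjusted p of 0.0157.

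The largest differences among the called genes, with predicted genes, Rik symbols, pseudogenes and repeated rows left out, were less even between batches. Gdf1, a TGF-beta family ligand, differed by 1.16 ± 0.388 (adjusted p = 0.0260), with 0.31 in batch 0 and 1.85 in batch 1. In batch 1 the lowest and the median STD value were both 5.53, so most STD mice there shared the lowest value. Gdf1 overlaps Cers1 (0.09, not called), and reads of the pair may not be separable. Eno1b (1.06 ± 0.296, adjusted p = 0.0159), a near copy of the glycolytic gene Eno1, had a lowest and a median STD value of 6.87 in batch 0. Vwf, the von Willebrand factor of endothelial cells, rose by 0.61 ± 0.170 (adjusted p = 0.0159), by 0.15 in batch 0 and 0.92 in batch 1. Among genes that fell, Arhgap5 (-1.04), Tmem47 (-0.99), Myo9a (-0.90), Ranbp2 (-0.90) and Pum2 (-0.88) all had negative differences in batch 1, among them -1.78 for Myo9a and -1.58 for Tmem47. Arhgap5 lost its call when any of 12 single mice was left out (adjusted p up to 0.0651), and Gdf1 and Myo9a lost theirs without AwT+/TWD replicate 3 or AwTw/TWD replicate 3 (up to 0.0524 and 0.0549). In batch 0 the differences of these 5 genes lay between -0.36 and 0.04, and that of Myo9a had the opposite sign.

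Cytosolic ribosomal protein genes went in 1 direction. All 47 genes of the large subunit and all 32 of the small subunit had positive differences; 40 and 27 rose past the threshold and 0 fell, where 16.0% of all genes rose. Median differences were 0.34 and 0.36, with jackknife SEs over mice of 0.10 for each list, against a median of 0.00 over all genes. In batch 0 the medians were 0.16 and 0.15, with 45 and 32 genes positive but 0 at an unadjusted p below 0.05. In batch 1 they were 0.53 for both, and 40 and 28 genes passed. Examples are Rpl32 (0.39), Rpl26 (0.45) and Rps10 (0.37), each with an adjusted p of 0.0157.

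Averaged over all 79 genes, the value per mouse in batch 0 ranged from 11.04 to 11.85 (median 11.26) on STD and from 11.23 to 12.10 (median 11.49) on TWD. In batch 1 it ranged from 10.89 to 12.12 (median 11.18) on STD and from 11.20 to 12.10 (median 11.84) on TWD. All 12 TWD mice of batch 1 and 11 of 12 of batch 0 lay above the STD median of their batch, while 0 and 3 exceeded the highest STD mouse. The 2 mice that stood apart were near the top, with 11.97 and 12.10, and without them the list medians were 0.29 and 0.31.

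Nuclear-encoded respiratory chain genes went the same way, where 16.0% of all genes rose and 13.4% fell. Of 37 complex I subunits 32 rose and 0 fell, with a median of 0.32 ± 0.10 (jackknife SE), and all 37 were positive in batch 0 (median 0.15) and 36 in batch 1 (0.49). The median was 0.26 without the 2 mice that stood apart. Ndufa6 rose by 0.39 and Ndufa5 by 0.41 (adjusted p = 0.0157 for each). Of 37 measured subunits of complexes II to V, 26 rose and 1, Uqcrc2, fell. Atp5b (0.36) and Atp5e (0.46) belong to the ATP synthase, Uqcrh (0.33) to the cytochrome bc1 complex. Ppargc1a, the coactivator known to promote mitochondrial gene expression, differed in the opposite direction (-0.70, adjusted p = 0.0157).

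Other lists of housekeeping machinery also contained more genes that rose than fell, to be read against 16.0% and 13.4% of all genes. Mitochondrial ribosomal proteins had 47 of 78 higher and 0 lower (median 0.20), with 77 of 78 positive in batch 0. Proteasome subunits had 17 of 32 higher and 1 lower, Psmc6 (-0.55, with 0.05 in batch 0). Glycolysis and citric acid cycle enzymes had 15 of 32 higher and 0 lower (median 0.15), among them Pfkp (0.17), Eno1 (0.32) and Pgam1 (0.18). Translation factors had 17 of 35 higher and 2 lower, and antioxidant and Nrf2 target genes 15 of 28 higher and 2 lower, with Mt1, a metallothionein, at 0.47.

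**Figure D3:**
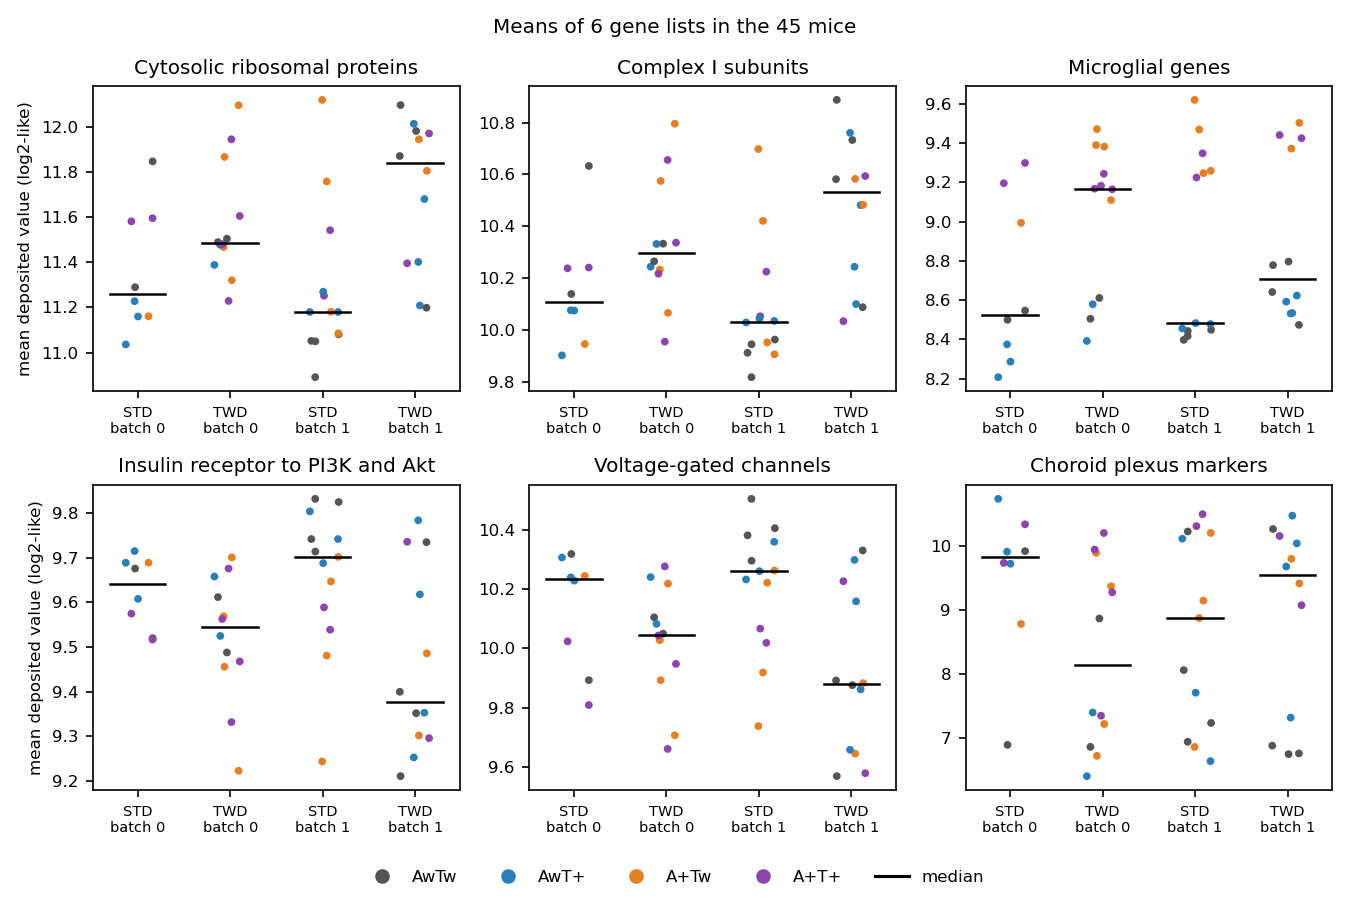
Mean deposited log2-like value over the genes of 6 lists in each of the 45 mice, by diet and batch, coloured by genotype, with black lines at group medians. Group medians of ribosomal protein, complex I and microglial means are higher on TWD in both batches, and those of insulin signalling and channel means are lower. That of choroid plexus means is lower on TWD in batch 0 and higher in batch 1. The means are not adjusted for genotype. For microglial genes in batch 0 the medians differ by 0.64, while the list median with genotype as a covariate was 0.13.

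Promoters of these groups are shown because some share short sequence elements that the comparison did not use. The RefSeq promoter table (GRCm38.p6, 250 bases before to 50 after each start) matched 11615 of 15683 gene symbols with 14930 windows. The ETS family core CCGGAAG, on either strand, was found in 36.8% of 68 windows of ribosomal protein genes and 22.1% of the windows of genes higher on TWD, against 15.2% of all windows and 11.6% of those of genes lower on TWD. The core of the NRF1 site, GCGCATG, was in 19.4% of 67 windows of oxidative phosphorylation genes, 8.31% of the higher and 4.89% of the lower genes, against 6.18% of all. The NF-Y element CCAAT (37.8% and 36.5%), the E-box CACGTG (10.1% and 8.90%) and the forkhead core TGTTTAC (2.41% and 1.81%) were found at similar rates in higher and lower genes. Neither element was particular to 1 group: CCGGAAG was also in 23.9% of oxidative phosphorylation windows, and GCGCATG in 13.2% of ribosomal protein windows. The CRE element TGACGTC was in 11.8% of ribosomal protein and 10.4% of oxidative phosphorylation windows, against 5.04% of all. CCGGAAG and GCGCATG have a high GC content, as did the transcripts of the genes that rose. The windows of 100 bases below come from the called ribosomal protein genes (CCGGAAG) and oxidative phosphorylation genes (GCGCATG) with the smallest p that had a match upstream of the start, with the element in capitals on whichever strand it lies; they are written 5′ to 3′ on the strand of the gene, which is the minus strand in all 4. A match describes letters and does not show binding.
Rps10, chr17:27635245-27635344: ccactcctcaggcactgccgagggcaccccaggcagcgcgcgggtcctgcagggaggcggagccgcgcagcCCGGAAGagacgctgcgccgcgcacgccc
Rps3a1, chr3:86142669-86142768: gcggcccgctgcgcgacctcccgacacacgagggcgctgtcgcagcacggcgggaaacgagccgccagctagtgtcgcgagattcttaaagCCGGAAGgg
Ndufa6, chr15:82354321-82354420: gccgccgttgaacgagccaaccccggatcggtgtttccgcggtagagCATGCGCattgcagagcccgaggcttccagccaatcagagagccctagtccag
Ndufa8, chr2:36049339-36049438: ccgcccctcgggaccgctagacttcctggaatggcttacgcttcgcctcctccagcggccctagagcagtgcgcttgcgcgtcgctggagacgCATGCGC

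Of 34 genes of insulin receptor signalling to PI3K and Akt, 15 fell and 2 rose on TWD, where 13.4% of all genes fell and 16.0% rose. The median was -0.18 ± 0.06 (jackknife SE), with -0.12 in batch 0, -0.24 in batch 1 and -0.15 without the 2 mice that stood apart. Pik3r1, which encodes the main regulatory subunit of class I PI3K and spans chr13:101680563-101768217, had the smallest p of the list. In batch 0 it ranged from 9.81 to 10.32 (median 10.08) on STD and from 9.24 to 10.17 (median 9.84) on TWD. In batch 1 it ranged from 9.60 to 10.59 (median 10.30) on STD and from 9.11 to 10.21 (median 9.53) on TWD. The ranges overlapped in both batches, and 21 of 24 TWD mice were below the STD median. The difference was -0.44 ± 0.0959 (adjusted p = 0.0157), with -0.22 in batch 0 (unadjusted p = 0.0555) and -0.62 in batch 1.

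Upstream of it, the receptor gene Insr (-0.39) and the adaptor Irs1 (-0.31) fell, as did the catalytic subunit Pik3cb (-0.27). Further along the pathway Pdpk1 (-0.46), Gsk3b (-0.45) and the transcription factor Foxo1 (-0.30 ± 0.108, adjusted p = 0.0346) were lower. Akt1 (0.03) and Akt2 (0.06) did not pass, and Pik3r2, another regulatory subunit of PI3K, rose (0.23). The symbol or the values of Pik3r2 are shared with another row, so its value may not be its own. Inhibitors of the pathway did not move as one: the phosphatases Phlpp1 (-0.29) and Phlpp2 (-0.25) and the mTOR inhibitor Tsc1 (-0.18) fell, whereas Tsc2 rose (0.40 ± 0.0902, adjusted p = 0.0157). Outside the list, the acetyltransferase Ep300 (-0.34 ± 0.108, adjusted p = 0.0209) and the ETS factor Elf1 (-0.31 ± 0.0747, adjusted p = 0.0157), were also lower. Ep300 had the larger difference in batch 0 (-0.46, against -0.26 in batch 1). Foxo1 lost its call when any of 11 single mice was left out (adjusted p up to 0.0682).

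Of 30 microglial genes 15 rose and 2 fell on TWD, where 16.0% of all genes rose and 13.4% fell. The median was 0.18 ± 0.06 (jackknife SE), with 0.13 in batch 0, 0.22 in batch 1 and 0.15 without the 2 mice that stood apart. Besides Aif1, the complement genes C1qa (0.41), C1qb (0.39) and C1qc (0.38) and the adaptor Tyrobp (0.39 ± 0.0928, adjusted p = 0.0157) rose. P2ry12, the purinergic receptor of resting microglia, fell (-0.36), while Cx3cr1 (-0.05) and Csf1r (0.12) did not pass. In bulk tissue, more microglia and more mRNA per microglial cell cannot be told apart. Trem2 rose by 0.34 ± 0.0985 (adjusted p = 0.0167), by 0.12 in batch 0 and 0.54 in batch 1; its row is repeated under a second identifier in the table. The phagosomal gene Cd68 rose by 0.25 ± 0.0830 (adjusted p = 0.0252).

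In batch 0, 8 of 12 TWD mice but 3 of 8 STD mice were A+. Values by diet, such as the ranges of Trem2 in batch 0 (6.90 to 9.31 on STD and 7.32 to 9.62 on TWD), mix genotype with diet, and the differences given are those with genotype as a covariate. Genes of the disease-associated microglial state are known from microglia around amyloid plaques. Those listed here were called at about the rate of all genes: 4 of 25 rose (16.0% of all genes did) and 1 fell, with a median of 0.05 ± 0.06. Apoe (0.24), Cd52 (0.27), Fth1 (0.29) and Ctsz (0.33) were higher and Timp2 (-0.19) lower. Cst7 (0.13), Itgax (-0.01) and Clec7a (-0.22) did not pass. Trem2 and Tyrobp, which rose, stood in other lists and were not counted in this one. The paper names both among its diet genes that overlap this state, so the share called depends on how the list was drawn.

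Of 22 interferon-stimulated genes 10 rose and 0 fell on TWD, against 16.0% and 13.4% of all genes. The median was 0.22 ± 0.08 (jackknife SE), with 0.20 in batch 0, 0.15 in batch 1 and 0.24 without the 2 mice that stood apart. Isg15, a ubiquitin-like antiviral protein, ranged in batch 0 from 4.91 to 5.95 on STD and from 5.30 to 6.99 on TWD, and in batch 1 from 5.31 to 6.15 and from 5.40 to 6.61. Its difference was 0.46 ± 0.105 (adjusted p = 0.0157), 0.49 in batch 0 and 0.39 in batch 1. Irf7 (0.46), Usp18 (0.34) and Ifitm3 (0.47) also rose. Usp18, which removes Isg15 from proteins, had the larger difference in batch 0 (0.40 against 0.27). Of 17 antigen presentation genes 7 rose and 0 fell, among them H2-K1 (0.44), H2-D1 (0.43), Tap1 (0.34) and Psmb10 (0.51).

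Genes of neuronal excitability were called lower more often than higher. Among 33 voltage-gated sodium, calcium and potassium channel genes, 15 fell and 0 rose (median -0.15 ± 0.07, -0.09 in batch 0, -0.25 in batch 1 and -0.12 without the 2 mice that stood apart), where 13.4% of all genes fell. Scn2a differed by -0.68, Kcnc2 by -0.47, Kcna4 by -0.35 and Kcnq5 by -0.31. Of 29 postsynaptic genes 10 fell and 2 rose. Those that fell included the GABA-A receptor subunit Gabrb2 (-0.84), the AMPA receptor subunit Gria2 (-0.56), the adhesion molecule Nlgn1 (-0.54) and the glutamate receptor Grm5 (-0.60), while Grin1, the obligatory NMDA receptor subunit, rose (0.34). Presynaptic genes were split, with 8 of 24 higher, such as Sv2a (0.31) and Syp (0.28), and 5 lower, such as Sv2b (-0.42). Chromatin-modifying enzymes had 12 of 70 higher (17.1%, near the 16.0% of all genes) and 18 lower (25.7%, against 13.4%).

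Counts of called cell type markers were small and are to be read against the 16.0% of all genes that rose and the 13.4% that fell. Hippocampal excitatory neuron markers had 2 of 12 higher, Neurod2 (0.30) and Slc17a7 (0.18), and a median of -0.08 ± 0.07. Slc17a7 lost its call when any of 11 single mice was left out. Astrocyte markers had 3 of 14 higher and 4 lower, oligodendrocyte and myelin markers 6 of 14 higher and 1 lower, and endothelial markers 2 of 14 higher and 1 lower. Interneuron markers had 4 of 12 higher, including Pvalb (0.40) and Cck (0.42), and 2 lower, including Gad2 (-0.62). Of 4 haemoglobin genes measured among 9 blood cell markers, 0 passed, and their mean ranged from 5.49 to 8.60 on STD and from 5.87 to 8.73 on TWD.

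Of the 39 lists, choroid plexus markers had the widest gap between the batch medians. The mean of 14 markers ranged from 6.40 to 10.73 over all mice, with a median of 9.82 on STD and 8.13 on TWD in batch 0 and of 8.87 on STD and 9.55 on TWD in batch 1. In batch 0, 12 of 14 markers were lower on TWD at an unadjusted p below 0.05 (2.53% of all genes were), including Ttr (-2.69), the thyroid hormone carrier of the choroid plexus, and Kl (-1.19). In batch 1 the median difference was 0.27, Ttr was at 1.11, and 0 of 14 passed. Over all mice 0 of 14 passed, and 9 of 14 had an unadjusted p below 0.05 for the interaction of batch and diet. The part of this tissue in the other differences was not tested.

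**Figure D4:**
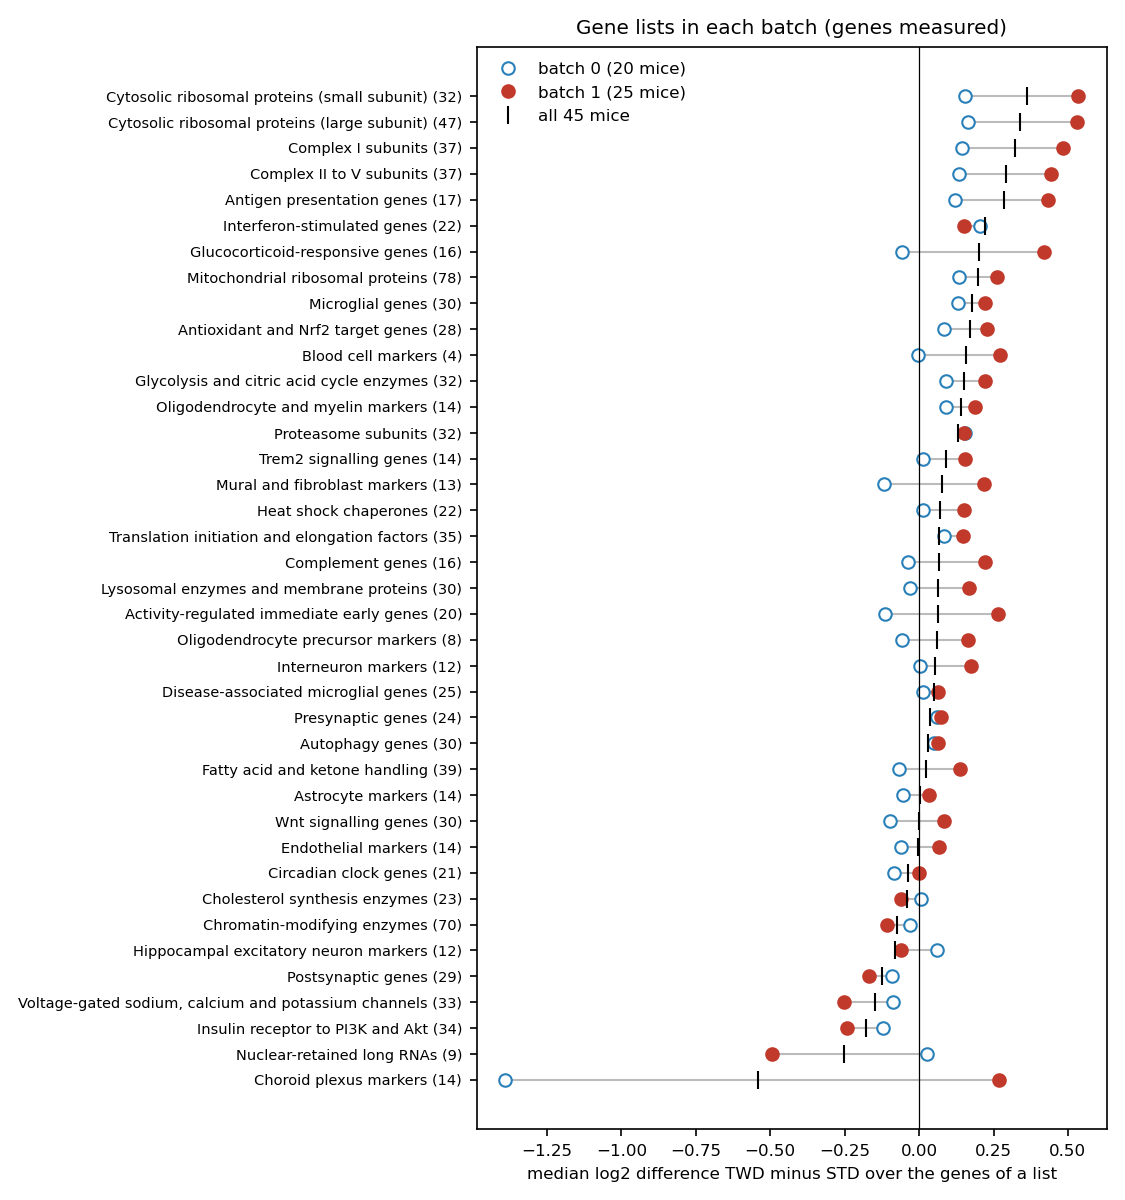
Median log2 difference between TWD and STD over the genes of each of 39 lists, in batch 0 (open circles), batch 1 (filled circles) and all 45 mice (vertical bars), with the number of genes measured in parentheses. Ribosomal and respiratory chain lists are to the right of 0 in both batches and farther in batch 1, and choroid plexus markers lie at -1.39 in batch 0 and 0.27 in batch 1.

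Several other lists had medians of opposite sign in the batches. Glucocorticoid-responsive genes had a median of -0.06 in batch 0 and 0.42 in batch 1, and activity-regulated immediate early genes -0.12 and 0.26. Ier2 (-0.07 and 0.58) and Junb (-0.01 and 0.62) are immediate early genes that rose over all mice, with small negative differences in batch 0. Nuclear-retained long RNAs had 0.03 and -0.49. Over all mice 5 of 16, 3 of 20 and 0 of 9 genes of these 3 lists rose, and 2, 0 and 1 fell. Of all genes 16.0% rose and 13.4% fell. The genes with the smallest p for the interaction of batch and diet were Pbxip1 (-0.28 in batch 0 and 0.26 in batch 1), Ier2, Smad7 (-0.24 and 0.35), Rbl1 (0.04 and -0.62) and Tmem255b (-0.18 and 0.61), each with an adjusted p of 0.125.

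In lists of fatty acid handling, the clock, lysosomes and Wnt signalling the shares called were mostly near or below the 16.0% of all genes that rose and the 13.4% that fell. Cholesterol synthesis enzymes had 5 of 23 higher and 5 lower: Pmvk (0.29) and Fdps (0.29) rose and Sc5d (-0.43) fell. Fatty acid and ketone handling genes had 5 of 39 higher, including Fasn (0.31), and 6 lower. Circadian clock genes had 1 of 21 higher, Dbp (0.29), and 3 lower, Clock (-0.52), Rora (-0.47) and Bhlhe41 (-0.38). The calls of Clock and Rora were lost when any of 17 and 8 single mice, respectively, was left out. Lysosomal genes had 4 of 30 higher and 5 lower, autophagy genes 7 of 30 higher and 1 lower, heat shock chaperones 7 of 22 and 3, and Wnt signalling genes 2 of 30 and 3. Medians in batches 0 and 1 differed in sign for fatty acid (-0.068 and 0.137), lysosomal (-0.032 and 0.166) and Wnt genes (-0.098 and 0.085). In these lists 18 of 39, 20 of 30 and 9 of 30 genes had an unadjusted p below 0.05 for the interaction of batch and diet, against 28.0% of all genes.

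The diet effect had the same sign in all 4 genotypes for 46.9% of genes, and its size varied. In the order AwTw, AwT+, A+Tw, A+T+, the median difference of the genes that rose over all mice was 0.40, 0.23, 0.21 and 0.12, and that of the genes that fell was -0.52, -0.27, -0.32 and -0.18. These mice also entered the calls. Genotypes were unevenly spread over the batches. Of the TWD mice, 4 AwTw and 4 AwT+ but 2 A+Tw and 2 A+T+ were in batch 1, where differences were larger. The fit by genotype had no interaction term of batch and diet, so the part of batch make-up in the values by genotype was not tested. Large-subunit ribosomal protein genes gave 0.56, 0.35, 0.32 and 0.11, and complex I subunits 0.50, 0.34, 0.30 and 0.14. Insulin signalling genes gave -0.34, -0.19, -0.12 and -0.07. Interferon-stimulated genes followed another order, with 0.19, 0.30, 0.31 and -0.01. Within genotypes, 1487 genes (9.35%) passed in AwTw mice, with 6391 (40.2%) at an unadjusted p below 0.05, and 0 (0.0%) passed in each other genotype, where such a p was found for 1183 genes (7.44%) of AwT+, 705 (4.43%) of A+Tw and 409 (2.57%) of A+T+ mice. The interaction of genotype and diet was tested itself and passed for 0 genes (0.0%; 292 or 1.84% unadjusted), so a difference between genotypes was not detected for any single gene. Without the 2 mice that stood apart, an AwTw and an A+T+ mouse, 0 genes passed in AwTw mice (4325 unadjusted) and 0 in each other genotype (1593 in AwT+, 681 in A+Tw, 348 in A+T+ unadjusted). The medians of the genes that rose were then 0.33, 0.23, 0.19 and 0.04, and those of the genes that fell -0.41, -0.29, -0.28 and -0.03, in the same order. The smallest p of this test were those of Slc26a10, Eci2, Dcaf1, Baiap2l2 and Tmco1, each with an adjusted p of 0.980.

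Calls made without a genotype were then read in the mice of that genotype. Without the A+Tw mice 2554 genes passed, of which 97.7% had the same sign in A+Tw mice alone, where 82.2% of all genes did, and 201 reached an unadjusted p below 0.05 with that sign, as did 5.11% of all genes with either sign. Without the A+T+ mice 4783 passed, of which 85.4% had the same sign in A+T+ mice (68.5% of all genes). Of these genes 69 had such a p with that sign and 4 with the opposite sign, a smaller share than the 2.47% of all genes with such a p in A+T+ mice. Without AwTw or AwT+ mice, 0 and 1 genes passed.

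The genes that rose and fell differed in their transcripts. Genes that rose had a median transcript length of 911 bases and a GC content of 55.1%, and genes that fell 2436 bases and 45.5%, against 1504 bases and 50.8% over all genes with an annotation (98.7%). When genes were split into 5 equal bins, 1.59% rose and 31.4% fell in the bin of lowest GC content, and 31.1% rose and 0.988% fell in that of the highest. For the shortest transcripts the shares were 26.3% and 7.41%, for the longest 3.47% and 26.5%. The trend with GC content was seen mostly in batch 1, where the median difference went from -0.41 in the lowest to 0.25 in the highest bin, compared with -0.02 and 0.03 in batch 0. In batch 1 it went from -0.31 to 0.19 once the 2 mice that stood apart were left out. The trend with length was present in both batches. From the shortest to the longest bin the median difference went from 0.048 to -0.054 in batch 0 and from 0.11 to -0.16 in batch 1. Ribosomal protein and complex I genes are short (list medians of 628.5 to 686 bases), and channel genes are long (3156 bases).

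**Figure D5:**
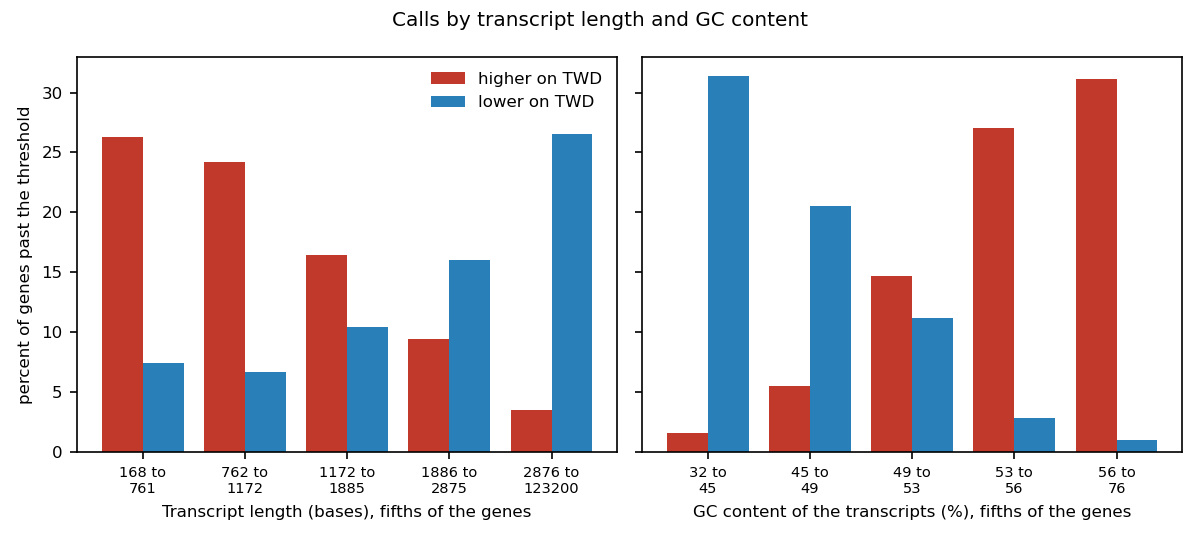
Percent of genes called higher (red) or lower (blue) on TWD in 5 equal bins of genes by transcript length in bases (left) and GC content in percent (right). The share of genes that rose increases with GC content from 1.59% to 31.1% and decreases with length from 26.3% to 3.47%, and the share that fell shows the reverse.

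A trend with length and GC content and a main axis of variation between mice moved with diet. With the trend over length and GC content removed from each mouse, 2901 genes passed (1776 higher, 1125 lower), 2109 of them shared with the 4678, and the medians of the ribosomal large subunit, complex I and insulin signalling lists were 0.26, 0.26 and -0.11. Elf1 was at 0.01 in that setting. The axis was the first component of what was left after genotype, batch and diet. Each mouse was scored by projecting its full values onto it, so the score keeps any difference between the diets along the axis. It had a median of -0.87 in STD and 0.85 in TWD mice of batch 1, and of -0.15 and 0.15 in batch 0. An effect of diet along the axis and an imbalance of the axis between the diet groups cannot be told apart. As a covariate the score removes both alike. With it 0 genes passed (1326 unadjusted), the 3 list medians were 0.09, 0.09 and -0.03, and those of channel, postsynaptic and microglial genes were -0.03, -0.04 and 0.07. The interferon median was 0.21 and Pbx3 was at -0.41. What this axis reflects was not tested.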

How the data were processed

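Hippocampal poly(A) RNA of 45 mice was sequenced by the study as single reads. Reads were trimmed with Trimmomatic 0.38, ribosomal and mitochondrial reads were removed with Bowtie 2 2.2.3, and kallisto 0.44.0 estimated counts on mouse transcripts (mm10), which were summed per gene. The authors kept genes with a mean count above 10, applied the variance-stabilizing transformation of DESeq2 1.22.2 and removed batch with limma 3.38.3. The deposited values are thus on a log2-like scale, with equal batch means for each of the 15897 genes. Counts were not used here. A change of batch means alters the level of a gene but not a difference fitted with batch as a covariate.

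Groups came from the labels, and each sample was taken as a separate animal. Values were fitted with limma 3.58.1 in R 4.3.3 (genotype, batch and diet; empirical Bayes with a mean trend). Tests were two-sided, p-values were adjusted across the whole table by Benjamini-Hochberg, and 0.05 was the threshold. Each batch was fitted with genotype. Interactions had their own terms. The methods were tested on simulated data with independent noise for each gene, so variation shared across genes was not covered. Transcript length and GC content are medians over GENCODE M21 transcripts. Jackknife SEs leave out 1 mouse at a time.

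The genes named were the 10 higher and 10 lower with the smallest adjusted p, the 5 higher and 5 lower with the largest difference, 10 with the smallest larger p of the 2 batches, 5 for each interaction, 3 per list with the smallest p, genes the study names for diet, and App, Mapt, Prnp and Camk2a, leaving out predicted genes, pseudogenes and repeated rows except in lists. Further members of lists, the Ndufa8 promoter and the choice of Atg4c and Tsr1 were named after their values were seen. The members of the comparison and the 39 lists (1031 entries, 14 without a match) were chosen with earlier results of these data known. The alternatives are given in the closing section. Some genes of the lists are not reported here by name.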

Additional observations from a re-analysis of the deposited data

Results flagged for a closer look

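Single mice far from the rest of their genotype and diet group were looked for in 31 genes and 8 groups by Dixon's criterion, in 248 groups of values, of which 8 were marked, where chance marks about 1 in 20. Sept1 was 6.82 in A+Tw/STD replicate 2 (others 6.25 to 6.26, n = 5). Aif1 was 7.15 in AwTw/STD replicate 2 (others 6.51 to 6.69, n = 6), and Cyth4 was 8.10 in AwTw/STD replicate 3 (others 8.39 to 8.51). P2rx4 was 8.16 in A+T+/TWD replicate 5 (others 7.84 to 7.95). Tmem255a was 8.07 in AwT+/TWD replicate 3 (others 8.63 to 8.88). Grrp1 was 6.77 in A+Tw/TWD replicate 2 (others 6.14 to 6.32). Trdmt1 was 5.49 in A+T+/TWD replicate 1 (others 5.97 to 6.25), and Timm10 was 8.04 in AwT+/STD replicate 3 (others 8.38 to 8.44). The calls of these 8 genes held in each fit that left out 1 mouse.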

How the results depend on the processing

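No paired analysis was possible because the replicate numbers follow only the order of accessions and name no shared animal, litter or day.

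The 4678 called genes (2546 higher, 2132 lower) became 0 in batch 0 alone (882 unadjusted), 0 without AwTw mice and 1 lower without AwT+ mice. They became 2554 (1676, 878) without A+Tw mice and 2901 (1125 lower) with length and GC trend removed. With the nuisance score, which itself differs between the diets, as a covariate 0 passed. At a threshold of 0.01, 1 lower and 0 higher passed. The same counts, 1 lower and 0 higher, were found without the 2 mice least like the others, an alternative chosen after seeing the data. Those lower were 3272 in batch 1 alone and 3229 at a threshold of 0.1. Dropping the covariate for batch, weighting genotypes equally, weighting each mouse, the label prefix as a covariate, quantile normalization, median centring, no mean trend, leaving out A+T+ mice, a filter on low values and counting repeated rows once gave counts within 1.5 times. Leaving out 1 mouse gave 2768 to 5917 genes (1688 to 3126 higher, 1080 to 2806 lower). The count moved by over 1.5 times without AwTw/TWD replicate 3 (2768) and AwT+/TWD replicate 3 (2856), and that of lower genes also without A+T+/TWD replicate 1 (1318), AwTw/TWD replicate 1 (1418), AwTw/STD replicate 4 (1393) and A+Tw/STD replicate 3 (1376). In all, 2665 genes passed in every such fit.

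The batch 1 count of 6498 was 3607 with length and GC trend removed, 0 with the nuisance score, 0 without AwTw mice, 0 without the 2 mice and 4385 to 7825 without 1 mouse, all chosen after seeing the data, and batch 0 stayed at 0. The Pearson r between batches was -0.138 with the nuisance score and 0.089 to 0.407 without 1 mouse (57.1% to 69.2% of genes of the same sign). Without the 2 mice, 0 genes passed in AwTw mice, where 1487 had. The interaction of batch and diet gave 0 to 1 gene (Tsr1, without AwT+/STD replicate 4), that of genotype and diet 0 without any 1 mouse and 1 (Atg4c) with the nuisance score.

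Of the genes that the rule named and that passed, Myo9a (0.0412), Ier2 (-0.0696), Rbl1 (0.044), Tmem255b (-0.179) and Junb (-0.0131) changed sign in batch 0 alone, Arhgap5 (0.0658), Clock (0.0459) and Rian (0.0305) with the nuisance score, and Ntsr2 (-0.00825), Abcc9 (0.0181) and Elf1 (0.00854) with length and GC trend removed. The cause was not tested. Depth per mouse is unknown, so no limit from counting can be given.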
